A study of Mus musculus with 48 samples.

Results

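The alpha and beta tubulin genes Tuba1a, Tuba1b, Tuba1c, Tuba4a, Tubb2a, Tubb2b, Tubb3, Tubb4a, Tubb4b and Tubb5 were followed in ribosome-bound RNA of mouse hippocampal astrocytes and of the fine astrocyte branches at synapses. They were chosen by symbol and make up 10 of the 47643 genes counted: 4 alpha and 6 beta tubulins. All 10 were found by symbol, and all 10 passed the filter on low counts.

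The study used translating ribosome affinity purification (TRAP), in which an antibody against green fluorescent protein (GFP) captures tagged ribosomes with the RNA they carry. Both groups came from the dorsal hippocampus of the transgenic line Tg(Aldh1l1-eGFP/Rpl10a) JD130Htz, where the regulatory sequences of the astrocyte gene Aldh1l1 drive a GFP-tagged ribosomal protein L10a, and both were pulled down with the GFP antibody. One group, Astro, was labelled full astrocytes and the other, PAP, perisynaptic astrocytic processes; animals 1, 2 and 3 (C1 to C3 in the labels) each gave 1 library of each, deposited as 8 technical replicates, so that 48 samples formed 6 libraries. Age, sex and treatment of the animals were not given in the sources used here. Unless the animal is named as a block, p-values treat the 6 libraries as independent. They then rest on the spread between libraries within the groups, leave out the pairing by animal, and cover these 3 animals only. Levels are given as CPM, a gene's counts divided by the TMM-adjusted total of its library and put on one common scale, and are listed for animals 1, 2 and 3 in that order.

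Microtubules are hollow polymers of alpha and beta tubulin pairs, and they carry transport, give shape to cell branches and form the mitotic spindle and the core of cilia. Mammals have several genes, or isotypes, for each partner; their proteins are much alike and differ most in the acidic tail at the C-terminus, which faces outward and is the site of modifying enzymes and of binding by motors and associated proteins. Tubulin mRNA is also subject to autoregulation: when free tubulin is in excess, a factor (TTC5) recognises the first residues of the nascent chain on the translating ribosome and the mRNA is degraded.

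The end of the beta coding regions is shown because it encodes the tail by which the isotypes are told apart. These are the last 60 coding bases, stop codon included, of the principal transcript of each beta gene in GENCODE M21 (GRCm38, coding strand). Capitals mark bases that differ from Tubb2a in an alignment of the whole coding regions.
Tubb2a: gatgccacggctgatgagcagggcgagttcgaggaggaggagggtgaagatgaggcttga
Tubb2b: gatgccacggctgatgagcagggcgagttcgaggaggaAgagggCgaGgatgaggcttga
Tubb3: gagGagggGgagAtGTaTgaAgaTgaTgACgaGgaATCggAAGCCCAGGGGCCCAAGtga
Tubb4a: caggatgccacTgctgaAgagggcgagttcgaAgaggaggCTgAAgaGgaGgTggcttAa
Tubb4b: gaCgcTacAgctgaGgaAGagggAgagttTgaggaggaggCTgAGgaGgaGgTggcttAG
Tubb5: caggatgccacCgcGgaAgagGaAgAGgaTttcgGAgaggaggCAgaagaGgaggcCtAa

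In this stretch Tubb2b differed from Tubb2a at 3 bases, Tubb4a at 11, Tubb5 at 15, Tubb4b at 17 and Tubb3 at 32. Tubb5, which rose in the processes, and Tubb2a, which fell, thus differ in the part that encodes the tail. At the other end, every alpha coding region had TGC and every beta coding region ATC as the fourth codon, within the stretch read by the autoregulation factor. The first 12 coding bases of Tuba1b and Tubb5, with that codon in capitals, stand for both families.
Tuba1b: atgcgtgagTGC
Tubb5: atgagggaaATC

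The tubulin genes did not move as a block between the compartments. Tuba1b, Tuba1c and Tubb5 were higher in PAP, by 5.42, 19.8 and 5.56 times in the ratio of group means, and Tubb2a was 5.75 times higher in Astro. The other 6 genes did not pass the test. In all, 3 of 10 rose, where 5.92% of all 14618 tested genes were called higher, and 1 of 10 fell, where 15.4% were called lower (edgeR quasi-likelihood test, adjusted p under 0.05). The median log2 fold change of the 10 genes was -1.12, against -0.53 over all tested genes. With genes of 3 counts or fewer in each library of a group set at their bound against 3 counts per library, those medians were -1.12 and -0.46. With the animal as a block in the fit the order was reversed, with a median of -1.19 for the 10 genes against -1.63 over all tested genes. In 9 of the 10 the CPM values of the groups did not overlap, which was true of 46.0% of all tested genes.

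With the animal as a block in the edgeR fit, none of the 10 passed the adjusted threshold, where 0.876% of all tested genes were called higher and 0.0342% lower. In this blocked fit 5 of 10 had an unadjusted p under 0.05, against 23.3% of all tested genes. The adjusted p of the 4 genes called without the block ran from 0.133 to 0.195 with it. Their fold changes were close in both fits, at 2.39 for Tuba1b, 4.30 for Tuba1c, 2.39 for Tubb5 and -2.56 for Tubb2a on the log2 scale with the block. All 4 calls were also lost when any 1 of the Astro libraries was left out (adjusted p from 0.0672 to 0.0864), while each was kept when any 1 of the PAP libraries was left out. Over all 17 alternatives the adjusted p ran from 2.82e-13 to 0.155 for Tuba1b, from 1.15e-28 to 0.195 for Tuba1c, from 7.64e-10 to 0.133 for Tubb5 and from 1.71e-10 to 0.237 for Tubb2a. By the DESeq2 Wald test without a block, 3 of 10 were called higher and 4 lower, against 11.8% and 24.2% of all genes given an adjusted p, and the 4 include Tubb3, which entered the test only through its Astro counts. That is said here of genes which met the filter on low counts in all 3 Astro libraries but in fewer than 3 PAP libraries, and of PAP counts in the reverse case.

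**Figure D1:**
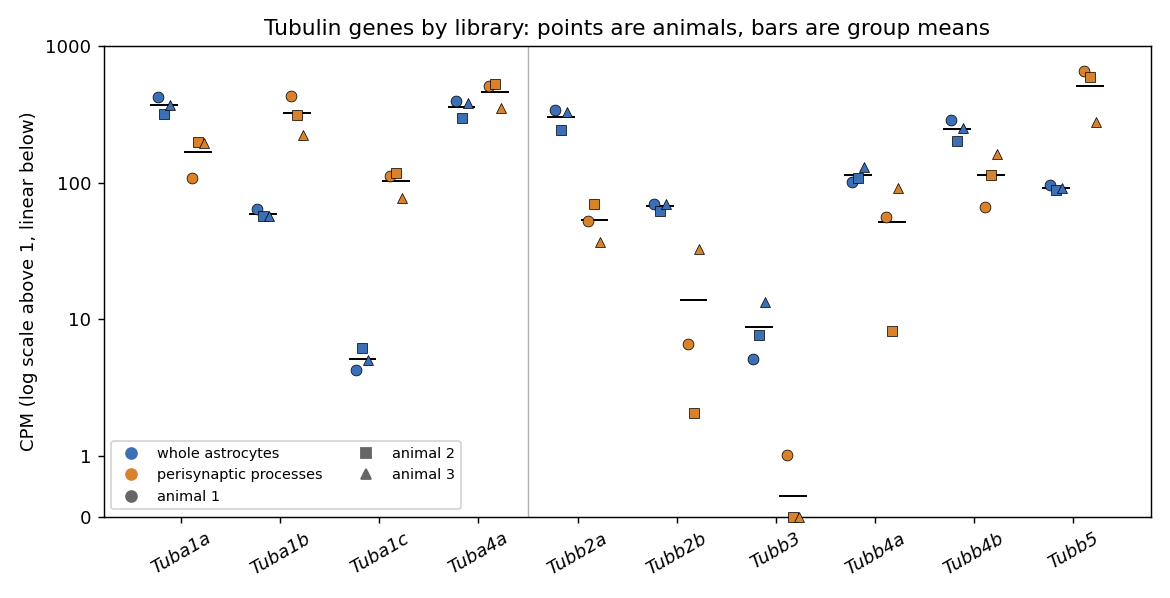
CPM of the 10 tubulin genes in each library, alpha genes left and beta genes right of the grey line, on an axis that is logarithmic above 1 and linear below. Points are the 3 animals in each group and bars are the group means; Tuba1b, Tuba1c and Tubb5 lie higher in PAP in every animal, and Tubb4a and Tubb2b are spread more widely in PAP than in Astro.

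Among the alpha genes, Tuba1a (ENSMUSG00000072235, chromosome 15, 98949837 to 98953703, minus strand) is the main alpha tubulin of developing neurons and remains abundant in the adult brain. Its CPM was 423, 319.5 and 369 in Astro and 108, 197 and 196 in PAP. Every PAP value was below every Astro value, and animal 1 had the lowest. The log2 fold change was -1.15 ± 0.34 (SE), with an adjusted p of 0.0593, so that it did not pass. Set against the median over all tested genes the difference was -0.62. With the animal as a block the estimate of -1.19 ± 0.47 lay above the median over all tested genes in that fit, which was -1.63.

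Tuba1b (ENSMUSG00000023004, chromosome 15, 98931425 to 98934565, minus strand) is an alpha tubulin made in most cell types. Its CPM was 64.0, 56.9 and 57.3 in Astro and 429, 314 and 224 in PAP. The Astro values lay within 1.12 times of each other, and all PAP values were far above them, highest in animal 1 and lowest in animal 3. Tuba1b rose by 2.44 ± 0.36 (SE) on the log2 scale, with an adjusted p of 0.02 (0.155 with the animal as a block). Set against the median over all tested genes, the difference was 2.97.

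Tuba1c (ENSMUSG00000043091, chromosome 15, 99029891 to 99038110, plus strand), a further alpha isotype of the same gene cluster, had the largest ratio of group means among the genes called. Its CPM was 4.28, 6.13 and 5.05 in Astro and 111, 118 and 77.6 in PAP. The groups did not overlap, and the 8 technical replicates of each PAP library held 19 to 38, 21 to 38 and 24 to 44 counts, so no single technical replicate carried the value. Tuba1c rose by 4.31 ± 0.60 (SE) on the log2 scale, with an adjusted p of 0.0165 (0.195 with the animal as a block).

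Tuba4a (ENSMUSG00000026202, chromosome 1, 75214228 to 75219865, minus strand), the alpha isotype made without the final tyrosine, had a CPM of 396, 297 and 384 in Astro and 507, 528 and 354 in PAP. The groups overlapped, and the PAP value was higher in 2 of 3 animals. The log2 fold change was 0.37 ± 0.28 (SE), with an adjusted p of 0.465. Of the 10 genes it was the nearest to 0, and none of the 17 alternatives brought it past the threshold.

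Of the beta genes, Tubb5 was called higher in PAP and Tubb2a lower. Tubb2a (ENSMUSG00000058672, chromosome 13, 34074274 to 34078007, minus strand), a major beta tubulin of brain, had a CPM of 338, 242 and 331 in Astro and 52.8, 69.2 and 36.5 in PAP. The groups lay far apart, and the 8 technical replicates of the PAP libraries held 9 to 15, 12 to 21 and 10 to 18 counts each. Tubb2a fell by 2.52 ± 0.39 (SE) on the log2 scale, with an adjusted p of 0.0208 (0.168 with the animal as a block, 0.237 by limma voom with a weight per group). Set against the median over all tested genes, the difference was -2.00. With the animal as a block the estimate of -2.56 ± 0.56 lay closer to the median over all tested genes in that fit, which was -1.63.

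Tubb2b (ENSMUSG00000045136, chromosome 13, 34126748 to 34130466, minus strand) is the close copy of Tubb2a and is known for its part in neuronal migration in the developing cortex. Its CPM was 70.3, 61.6 and 70.3 in Astro and 6.60, 2.05 and 32.9 in PAP. All PAP values were lower, yet they differed by 16.0 times among themselves, with animal 3 highest. The log2 fold change was -2.27 ± 1.07 (SE), with an adjusted p of 0.217. Without PAP animal 3 it was -4.02 with an adjusted p of 0.0216, the only one of 17 alternatives in which it passed (range 0.0216 to 0.485).

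Tubb3 (ENSMUSG00000062380, chromosome 8, 123411424 to 123422015, plus strand) is the beta tubulin used as a marker of neurons. It had 95, 132 and 264 counts in Astro, or 5.08, 7.71 and 13.3 CPM, and 2, 0 and 0 counts in PAP. Since 3 counts amounted to 0.987 to 1.54 CPM in the PAP libraries, Tubb3 was at least 6.45-fold lower in mean PAP than in mean Astro CPM, computed against that floor per library. Its adjusted p was 0.0639, and 5 of 15 alternatives took it past the threshold. It entered the test only through its Astro counts.

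Tubb4a (ENSMUSG00000062591, chromosome 17, 57080066 to 57087782, minus strand), a beta tubulin of brain that is abundant in oligodendrocytes, had a CPM of 101, 108 and 129 in Astro and 56.4, 8.21 and 90.8 in PAP. All PAP values were lower, and they spanned 11.1 times, with animal 2 lowest. The technical replicates of that library held 0 to 4 counts each, against 11 to 19 in animal 1 and 24 to 46 in animal 3. Its log2 fold change of -1.12 ± 0.83 (SE) had an adjusted p of 0.45, and none of the alternatives brought it past the threshold.

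Tubb4b (ENSMUSG00000036752, chromosome 2, 25222160 to 25224702, minus strand), a widely made beta tubulin that is also the main one of cilia, had a CPM of 287, 202 and 253 in Astro and 66.5, 113 and 162 in PAP. The groups did not overlap, with animal 1 lowest in PAP and highest in Astro. The log2 fold change was -1.12 ± 0.42 (SE), with an adjusted p of 0.124. It passed in 2 of 17 alternatives, the DESeq2 Wald test and the fit without PAP animal 3.

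Tubb5 (ENSMUSG00000001525, chromosome 17, 35833921 to 35838306, minus strand) is a beta tubulin of most cell types. Its CPM was 95.8, 87.9 and 90.7 in Astro and 650.4, 595 and 279.9 in PAP. The Astro values lay within 1.09 times of each other, whereas PAP values spanned 2.32 times, lowest in animal 3 as for Tuba1b and Tuba1c. Tubb5 rose by 2.47 ± 0.39 (SE) on the log2 scale, with an adjusted p of 0.0208 (0.133 with the animal as a block). Set against the median over all tested genes, the difference was 3.00.

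**Figure D2:**
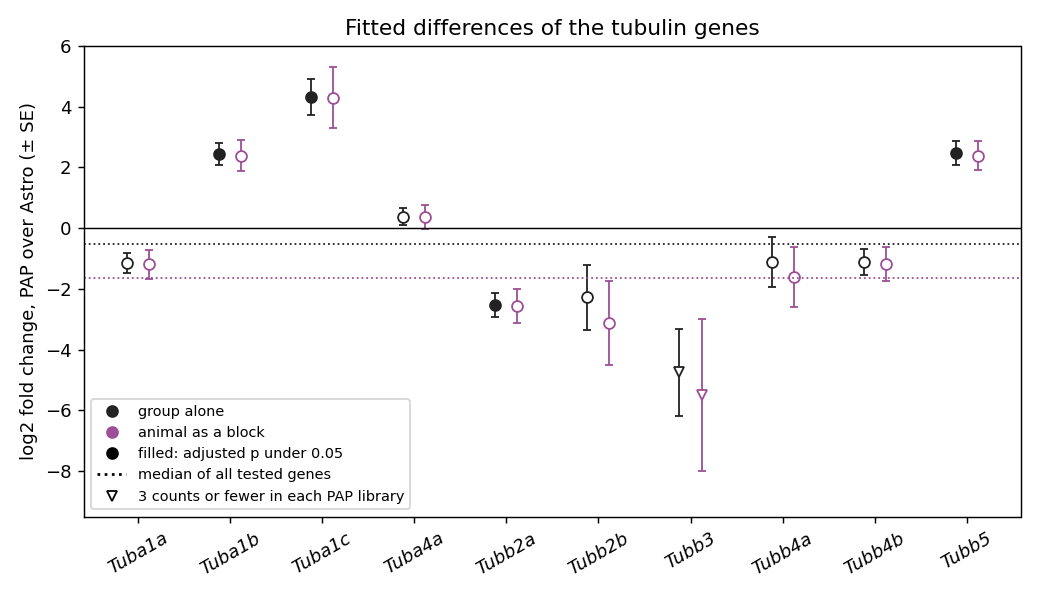
Fitted log2 fold changes of PAP over Astro with standard errors for the 10 genes, from the fit of group alone (black) and the fit with the animal as a block (purple). Filled points have an adjusted p under 0.05 (Tuba1b, Tuba1c, Tubb2a and Tubb5, without the block only), dotted lines are the medians of all tested genes (-0.53 and -1.63), and the triangles mark Tubb3, with 3 counts or fewer in each PAP library, whose fitted value depends on the prior count.

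Despite these differences between isotypes, the summed tubulin level overlapped between the compartments. The 10 genes together had a CPM of 1785, 1389 and 1702 in Astro and 1989, 1945 and 1453 in PAP, and PAP was 1.11, 1.40 and 0.854 times Astro in animals 1, 2 and 3. The summed alpha level was 887, 679.5 and 815 CPM in Astro and 1155, 1157 and 851 in PAP, which also overlapped, while PAP was 1.30, 1.70 and 1.04 times Astro in animals 1, 2 and 3, above 1 in each. For the summed beta level the values were 898, 709.5 and 887 in Astro and 834, 788 and 602 in PAP. These overlapped as well, with PAP at 0.929, 1.11 and 0.679 times Astro.

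The composition of each family differed far more than its sum. Shares were computed from CPM per kilobase of exon, so that isotypes of different length could be compared. Of the alpha sum, Tuba1a made up 61.1% ± 1.07 (SD, n = 3) in Astro and 22.1% ± 8.92 in PAP, and Tuba1b 9.48% ± 0.84 and 39.1% ± 8.02. Tuba1c made up 0.688% ± 0.217 and 10.2% ± 0.727. The share of Tuba4a was 28.8% ± 1.44 in Astro and 28.6% ± 1.78 in PAP, closer to each other than the spread between animals. Which alpha isotype leads depends on the length used: per kilobase of the principal transcript, Tuba4a led in PAP of animal 2, with 34.7% against 33.7% for Tuba1b.

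Of the beta sum, Tubb2a held 44.9% ± 1.92 (SD, n = 3) in Astro and 12% ± 2.98 in PAP, and Tubb5 held 6.63% ± 0.756 and 55.5% ± 17.8. By animal the share of Tubb5 in PAP was 67.7%, 63.7% and 35.1%, all above its 6.07% to 7.48% in Astro. Tubb4b, with 28.2% ± 1.76 and 20.9% ± 10.8, and Tubb4a, with 12.2% ± 1.95 and 9.03% ± 7.85, had shares that overlapped between the groups. In PAP of animal 3 the shares of Tubb4b (32.4%) and Tubb4a (17.0%) were the highest of the 6 libraries. Tubb2b had 7.05% ± 0.481 in Astro and 2.43% ± 3.09 in PAP, and Tubb3 1.12% ± 0.498 and 0.0627% ± 0.109.

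**Figure D3:**
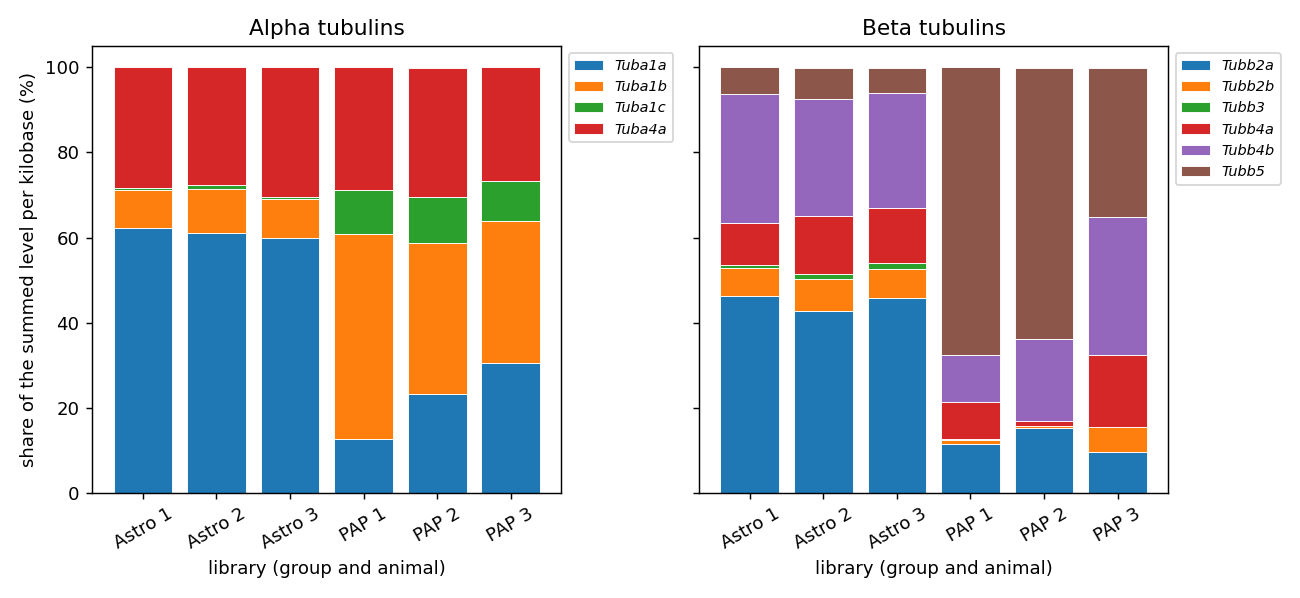
Share of each isotype in the summed alpha level (left) and the summed beta level (right), in percent of CPM per kilobase of exon, for each of the 6 libraries. On this scale Astro bars are nearly alike and led by Tuba1a and Tubb2a, while PAP bars are led by Tuba1b and Tubb5 in animals 1 and 2, and in animal 3 by Tuba1b with 33.4% next to Tuba1a with 30.4%, and by Tubb5 with 35.1% next to Tubb4b with 32.4%.

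Ordered by level, the Astro series of mean CPM per kilobase of exon ran from Tuba1a (206) and Tubb2a (189) through Tubb4b (118), Tuba4a (96.9), Tubb4a (50.6), Tuba1b (31.7), Tubb2b (29.4) and Tubb5 (27.5) to Tubb3 (4.66) and Tuba1c (2.25). The neighbours Tuba1a and Tubb2a, Tubb4b and Tuba4a, Tuba1b and Tubb2b, and Tubb2b and Tubb5 overlapped between libraries, and the other neighbours did not. In PAP the series ran from Tuba1b (172), Tubb5 (153), Tuba4a (125) and Tuba1a (92.7) through Tubb4b (54.6), Tuba1c (44.7), Tubb2a (32.8) and Tubb4a (23.2) to Tubb2b (6.04) and Tubb3 (0.181). There, all neighbours overlapped except Tubb2b and Tubb3. The order depends on the length used. By the length of the principal transcript, Tubb5 stood at place 1 and Tuba1b at place 2 in PAP, and in Astro Tubb5 at 6, Tuba1b at 7 and Tubb2b at 8. By CPM without a length, Tubb5, Tuba4a and Tuba1b stood at places 1, 2 and 3 in PAP, and in Astro Tuba4a at 2, Tubb2a at 3, Tubb4b at 4, Tubb5 at 6 and Tuba1b at 8.

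Ranked by CPM per kilobase among all genes with a count, Tuba1b moved from place 2141 of 22329 in Astro to 331 of 17145 in PAP, and Tubb5 from 2429 to 371. Tuba1c stood at place 10144 in Astro and 1370 in PAP. Tuba1a was at place 293 in Astro and 667 in PAP, and Tubb2a at 334 and 1864. The lists differ in length, so a place describes its own group only.

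The genes whose pattern over the 6 libraries was most like the summed alpha level, by root-mean-square difference of centred log2(CPM + 1) among 2211 candidates, were Ldha (0.055), Psmb1 (0.068) and Nkapd1 (0.126). For the summed beta level they were Ssb (0.056), Mettl23 (0.099) and Slc25a3 (0.106). Ldha is a subunit of lactate dehydrogenase, Psmb1 a subunit of the proteasome, Ssb an RNA-binding protein and Slc25a3 the phosphate carrier of mitochondria. None of these 6 genes passed the test between the groups, with adjusted p from 0.328 to 0.955. Being chosen by likeness to sums that overlap between the groups makes this likely, so nothing is read from it.

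Several of the tubulin genes are close copies, and reads of such genes can be assigned to the wrong copy or dropped, depending on how the counting treated them, which is not given in the sources used here. Their coding regions were identical at 98.3% of aligned positions for Tuba1a and Tuba1b, 97.9% for Tuba1b and Tuba1c, 97.1% for Tuba1a and Tuba1c and 96.5% for Tubb2a and Tubb2b. Over the 21 pairs within a family the median was 83.9%, and over the 24 pairs of an alpha with a beta gene 53.6%. Of all 50-base stretches of the principal transcript, 75.5% in Tuba1a, 83.1% in Tuba1b and 61.0% in Tuba1c occurred in a transcript of another gene. The single values of these 3 genes are therefore uncertain. Their sum does not depend on how reads were split among them, though it does on reads dropped or given to pseudogenes. It was 492, 383 and 432 CPM in Astro and 648, 629 and 497 in PAP, without overlap.

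For Tubb2a and Tubb2b the shared part was 49.6% and 39.3%, and their sum was 409, 304 and 401 CPM in Astro and 59.4, 71.3 and 69.4 in PAP. In PAP the sum varied less than Tubb2a or Tubb2b taken alone, and lay below every Astro value. Tubb5 shared 0.1% of its stretches, Tubb4a 0.2% and Tubb3 none, so the values of these 3 genes do not rest on a close copy. Tubb4b shared 55.5%, mostly with processed pseudogenes. Tuba4a shared 48.8%, nearly all with Stk16, a kinase gene on the opposite strand whose exons overlap it by 1379 bases. Stk16 had 109, 119 and 138 CPM in Astro and 48.7, 115 and 102 in PAP (adjusted p 0.601), and without a known strand setting reads in the overlap cannot be assigned to either gene. Exons of Gm49450 overlap Tuba1a by 473 and Tuba1b by 426 bases on the same strand.

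Promoters are shown for 3 of the genes that passed the test, Tuba1c and Tubb5, which rose, and Tubb2a, which fell, as the 250 bases before the start in RefSeq (GRCm38.p6), read along the gene. The RefSeq promoter table used here gave a match for 9 of the 10 genes. Capitals mark the motifs searched on both strands. They were the TATA box, spelled TATAAA, the box that has the letters CCAAT, the GC box, with the letters GGGCGG, and the core of the cell-cycle element known as CHR, with the letters TTTGAA. Tuba1c lies at chr15:99029641-99029890 (plus strand), Tubb5 at chr17:35838302-35838551 (minus strand) and Tubb2a at chr13:34078009-34078258 (minus strand).
Tuba1c: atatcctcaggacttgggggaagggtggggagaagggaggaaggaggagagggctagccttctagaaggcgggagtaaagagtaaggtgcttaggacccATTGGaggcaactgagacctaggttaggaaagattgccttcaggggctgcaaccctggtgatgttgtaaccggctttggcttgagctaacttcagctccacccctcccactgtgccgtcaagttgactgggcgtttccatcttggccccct
Tubb5: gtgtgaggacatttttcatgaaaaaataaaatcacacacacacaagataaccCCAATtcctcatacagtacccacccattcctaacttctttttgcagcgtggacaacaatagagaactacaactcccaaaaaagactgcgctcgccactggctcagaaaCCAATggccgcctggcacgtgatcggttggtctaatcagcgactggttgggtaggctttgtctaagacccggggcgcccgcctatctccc
Tubb2a: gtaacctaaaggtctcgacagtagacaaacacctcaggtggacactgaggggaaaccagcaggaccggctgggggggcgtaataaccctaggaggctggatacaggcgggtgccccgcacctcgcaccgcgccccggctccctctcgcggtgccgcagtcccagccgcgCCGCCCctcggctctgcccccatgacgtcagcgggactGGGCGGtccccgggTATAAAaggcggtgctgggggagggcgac

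Tuba1c held 1 CCAAT box and Tubb5 2, whereas Tubb2a held 1 TATA box and 2 GC boxes. Tuba1b, which also rose, held 2 GC boxes and no CCAAT box, so the promoters of the genes that rose did not share one of these motifs. Over the 9 tubulin promoters the CCAAT box was in 5 and the GC box in 6, the TATA box in Tubb2a only and TTTGAA in Tubb4b only. Of all 32851 promoters in the table, 33.8% held CCAAT, 32.7% GGGCGG, 12.4% TATAAA and 16.0% TTTGAA. The G and C content was 55.6% for Tuba1c, 49.2% for Tubb5, 75.6% for Tuba1b and 68.4% for Tubb2a, with a median of 52.4% over all promoters.

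Genes that act on tubulin were then read from the same fit, in lists written with earlier results of these data known. New tubulin chains are folded by the chaperonin CCT after delivery by prefoldin and are joined into pairs by the tubulin cofactors. Of 21 tested genes of this folding pathway 6 rose (28.6%, against 5.92% of all tested genes) and none fell, and the median log2 fold change was 0.00, against -0.53 over all tested genes. At an unadjusted p under 0.05 the numbers were 7 and 0, by DESeq2 8 and 0, and by limma voom 3 and 1. The chaperonin subunit Tcp1 had a CPM of 159, 148 and 193 in Astro and 1056, 1136 and 1008 in PAP. It rose by 2.68 ± 0.23 (SE) on the log2 scale, with an adjusted p of 0.00309, and was the only one of the 6 to pass with the animal as a block (0.039). The subunits Cct4 (2.13 ± 0.40, adjusted p 0.0208) and Cct5 (2.15 ± 0.43, adjusted p 0.0208) also rose. Cct2, Cct7 and the prefoldin subunit Pfdn5 were the others, with log2 fold changes of 2.36, 1.37 and 1.44.

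Among enzymes that modify tubulin, 17 of 19 genes were tested, none rose and 2 fell, with a median of -0.63 against -0.53 over all tested genes. The 2 that fell are 11.8% of those tested, near the 15.4% of all tested genes. At an unadjusted p under 0.05 in edgeR, by DESeq2 and by limma voom, again none rose, and 3 fell in each. Atat1, the acetyltransferase that acts on lysine in the microtubule lumen, had 78.8, 67.7 and 70.2 CPM in Astro and 5.59, 5.64 and 0.658 in PAP, and fell by 4.20 ± 0.99 (SE) on the log2 scale (adjusted p 0.0278, or 0.206 with the animal as a block). Hdac6, a deacetylase of tubulin, had 15.3, 15.6 and 12.2 CPM in Astro and no count in PAP, and was at least 10.6-fold lower there (adjusted p 0.0208, or 0.206 with the block). Both entered the test only through their Astro counts.

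Of the 4 genes tested for tubulin mRNA autoregulation none passed in edgeR, none had an unadjusted p under 0.05, and none passed by DESeq2 or limma voom. Their median was -0.82. Ttc5 itself had 68.9, 70.6 and 93.5 CPM in Astro and 11.7, 0 and 31.9 in PAP (adjusted p 0.353). Scaper, which links TTC5 to mRNA decay, had 20.8, 12.7 and 22.0 in Astro and 6.09, 2.56 and 103 in PAP. In both genes the PAP libraries lay far apart.

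Of 34 genes of microtubule-binding proteins 1 rose and 5 fell, and the median was -1.25. These are 2.94% and 14.7%, against 5.92% and 15.4% of all tested genes. At an unadjusted p under 0.05 and by DESeq2, 2 were higher and 7 lower, and by limma voom 1 and 2. Mapre1, which tracks growing plus ends, had 309, 265 and 261 CPM in Astro and 1013, 645 and 606 in PAP, and rose by 1.44 ± 0.29 (SE) on the log2 scale (adjusted p 0.0208, or 0.206 with the block). Map1lc3b, a microtubule-associated light chain better known for autophagy, fell by 2.11 ± 0.37 (adjusted p 0.0208). Clasp2, a plus-end stabiliser, fell by 3.56 ± 0.79 (adjusted p 0.0237). Stmn4, a neuronal stathmin that binds tubulin pairs, was at least 20.0-fold lower in PAP, with 21.1, 37.3 and 22.5 CPM in Astro against 0, 0 and 0.329. Map4 and Camsap3 were the others that fell. Stmn4 and Camsap3 entered the test only through their Astro counts. None of these 6 passed with the animal as a block.

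The list of other tubulin superfamily members, among them the gamma, delta and epsilon tubulins, held 10 genes, of which 6 were tested, with a median log2 fold change of -0.15. In edgeR 1 gene (Tuba8) passed, lower in PAP, or 16.7%, near the 15.4% of all tested genes. At an unadjusted p under 0.05, 1 was higher and 1 lower. DESeq2 also called 1 higher and 1 lower, against 11.8% and 24.2% of all genes given an adjusted p, and limma voom called none. Tuba8 had 4.22, 2.34 and 2.93 CPM in Astro, 3 counts or fewer in each PAP library, and was at least 2.34-fold lower there (adjusted p 0.0429, or 0.342 with the block), but it entered the test only through its Astro counts. The gamma tubulins that nucleate microtubules did not pass in edgeR. Tubg1 had 61.3, 49.3 and 63.8 CPM in Astro and 38.1, 0.513 and 33.2 in PAP, and Tubg2 had 8.71, 12.4 and 11.1 against 134, 50.8 and 17.4. The Tubg2 values did not overlap between groups, with a log2 fold change of 2.65 and an adjusted p of 0.0960 in edgeR, 0.00345 by DESeq2 and 0.194 by limma voom.

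**Figure D4:**
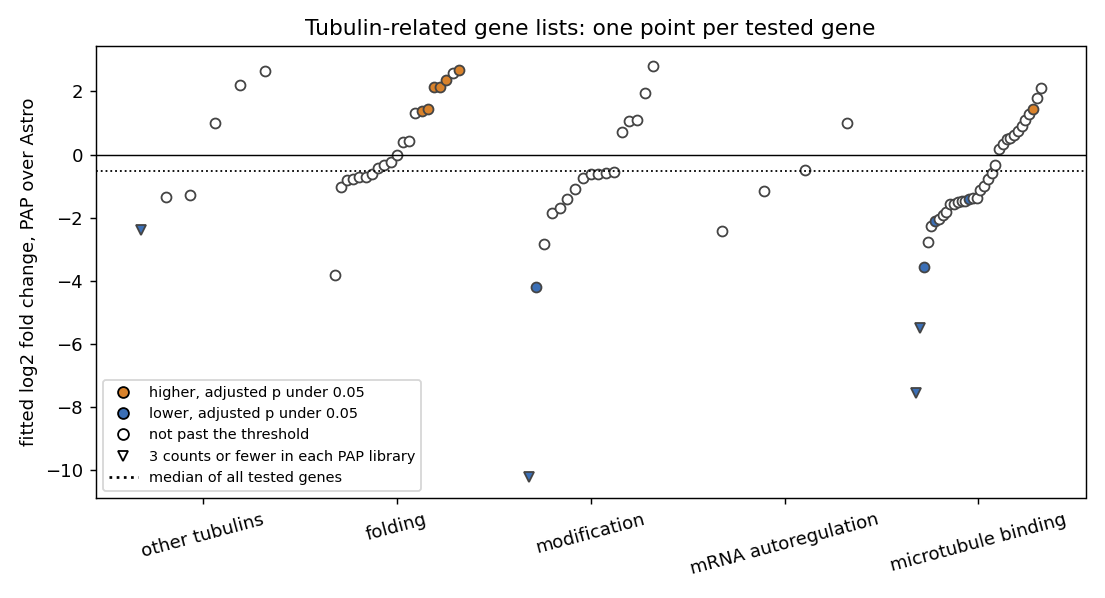
Fitted log2 fold changes of PAP over Astro for each tested gene of the 5 lists of tubulin-related genes, 1 point per gene, sorted within a list. Orange points were called higher and blue points lower, triangles have 3 counts or fewer in each PAP library, and the dotted line is the median of all tested genes (-0.53); the called folding genes all lie above 0 and the called modifying enzymes below.

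The libraries differed in more than their tubulins. Totals were 18707844 to 20293538 counts in Astro and 1829962 to 2980984 in PAP, and the biological coefficient of variation was 0.335 among Astro and 1.57 among PAP libraries. The label was checked against astrocyte markers: 6 of 15 fell in edgeR, or 40.0% against 15.4% of all tested genes, and none rose. At an unadjusted p under 0.05 and by DESeq2, 12 were lower, by limma voom 3, and none was higher by any of these. Their summed CPM was 40683, 35885 and 31104 in Astro and 4822, 10743 and 18771 in PAP, lowest in animal 1. Aldh1l1 itself was present in every library, with 230.5, 223 and 249 CPM in Astro and 49.8, 83.1 and 109.8 in PAP. In such bulk libraries, fewer cells of a type and less RNA per cell cannot be told apart.

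Beside the rise of Tuba1b, Tuba1c and Tubb5, the summed levels of a dividing-cell list and of a B-cell lineage list were higher in PAP in each animal. The 3 tubulins together had a CPM of 164, 151 and 153 in Astro and 1191, 1027 and 581 in PAP, which was 7.25, 6.80 and 3.80 times Astro in animals 1, 2 and 3. Of 6 genes of dividing cells, Top2a, Birc5 and Cenpf rose in edgeR, against 5.92% of all tested genes. At an unadjusted p under 0.05 and by DESeq2 5 were higher, and by limma voom 3. Nothing is read from these numbers, as Top2a and Cenpf entered the test only through their PAP counts. Top2a had 7, 14 and 4 counts in Astro. The dividing-cell list summed to 4.70, 6.83 and 11.0 CPM in Astro and 518, 234 and 292 in PAP, and Mki67 was at 32.5, 0.513 and 0 in PAP. Of 10 genes of the B-cell lineage, a list added after the values were seen, 8 were tested. In edgeR 6 were called higher (75.0%) and 1, Ighm, lower (12.5%), against 5.92% and 15.4% of all tested genes. By DESeq2 7 were higher and 1 lower, against 11.8% and 24.2% of all genes given an adjusted p, and by limma voom 4 and 1. Of the genes called in edgeR, Ms4a1 and Iglc2 entered the test only through PAP and Ighm only through Astro. Since the list was added after the values were seen, nothing is read from its number of calls.

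The B-lineage list summed to 75.0, 45.8 and 72.5 CPM in Astro and 6993, 4496 and 3136 in PAP. It was led by the antibody genes Igkc (2605, 1732 and 1245 in PAP) and Jchain (2503, 1196 and 1093), while Ighm and Cd79a had no count in PAP. The part of these cells' RNA in the tubulin differences was not tested.

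Beside the lower Tubb2a, Tubb2b, Tubb3, Tubb4a and Tubb4b values, other lists were as follows. Neuron markers had 2 of 15 higher and 2 lower in edgeR, or 13.3% each, against 5.92% and 15.4% of all tested genes. By DESeq2 the numbers were 3 and 2, and by limma voom 1 and 0. The list had sums of 922, 1349 and 1647 CPM in Astro and 1604, 2823 and 1473 in PAP. Among them Snap25 fell and Syt1 rose, with 393, 536 and 659 against 44.2, 129 and 166, and 66.8, 86.0 and 112 against 176, 276 and 247. Snhg11, a long noncoding RNA of neurons, rose from 32.4, 16.5 and 4.50 to 1076, 1256 and 559, and Nrgn fell. In each animal Snhg11 was the largest single part of the list's PAP sum. Oligodendrocyte markers, given because Tubb4a is abundant in those cells, summed to 829, 913 and 897 in Astro and 609, 1058 and 1029.7 in PAP. In edgeR 1 of 11 fell, Ugt8a (9.09%, against 15.4% of all tested genes). DESeq2 called 1 higher and 2 lower, against 11.8% and 24.2% of all genes given an adjusted p.

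Markers of ciliated ependymal cells, given because Tubb4b is a tubulin of cilia, summed to 90.2, 150.3 and 101 CPM in Astro and 28.4, 28.7 and 4.28 in PAP. The 4 of 7 called lower (Foxj1, Tmem212, Ccdc153 and Tekt4) all entered the test only through their Astro counts, so nothing is read from their number. The ciliary factor Foxj1 had 12, 16.9 and 10.1 CPM in Astro and 0.508, 0 and 0 in PAP. Of immature-neuron markers 5 of 7 were tested. Of these edgeR called 1 lower (20.0%, against 15.4% of all tested genes), Prox1, which had no count in PAP. DESeq2 called 2 lower and limma voom 3, and no tool called any higher. Dcx, which marks new neurons, was at 106, 1.03 and 0.329 CPM in the PAP libraries and at 0.0535 or below in Astro, while Tubb3 was highest in Astro. Microglia markers summed to 98.5, 95.7 and 45.7 CPM in Astro and 181, 216 and 24.0 in PAP, so the groups overlapped. Of 8 tested, edgeR called 3 lower (37.5%, against 15.4% of all tested genes) and none higher (against 5.92%). The 3 were Cx3cr1, P2ry12 and Tmem119, all with no count in PAP. DESeq2 called 3 lower and 1 higher, against 24.2% and 11.8% of all genes given an adjusted p. Endothelial markers summed to 15.2, 20.1 and 11.7 CPM in Astro and 24.4, 4.10 and 15.5 in PAP. Of 3 tested, edgeR called 1 lower (Itm2a, or 33.3% against 15.4% of all tested genes) and none higher, while DESeq2 called 1 lower and 1 higher. Ugt8a, Prox1, Itm2a and the 3 microglia genes had 3 counts or fewer in each PAP library and entered the test only through their Astro counts. Nothing is therefore read from the number of these calls. With the animal as a block, the calls among all these marker lists were 1 neuron gene and 4 B-lineage genes, all higher. The part of any of these cells in the tubulin values was not tested.

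**Figure D5:**
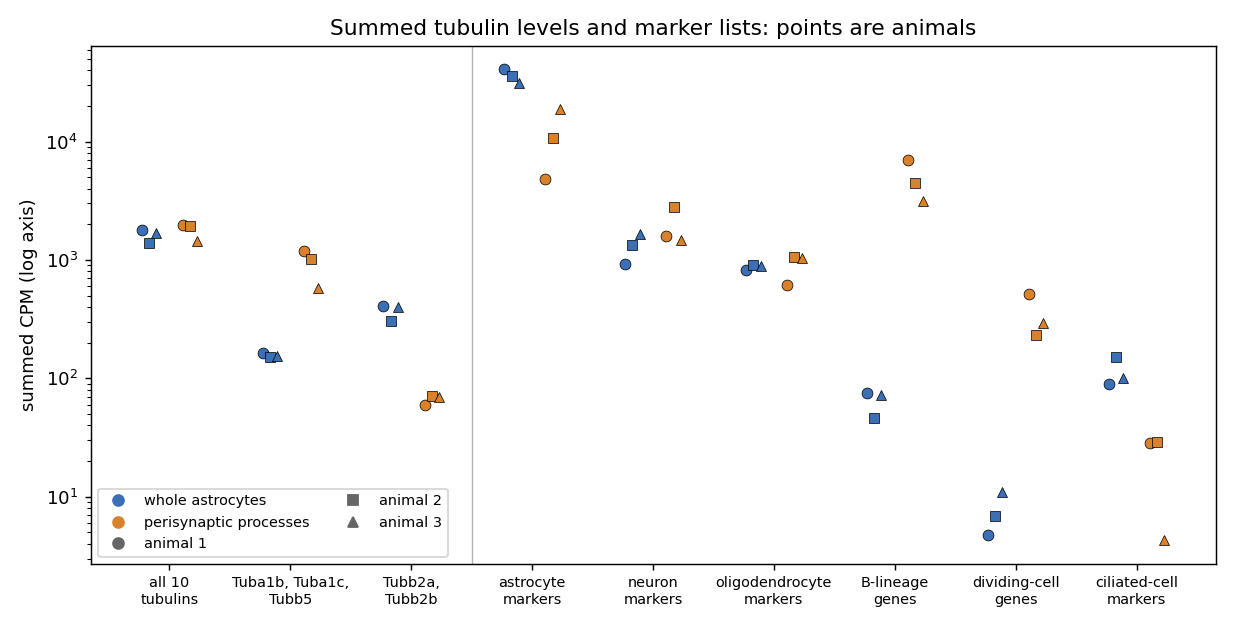
Summed CPM, on a log axis, of groups of tubulin genes (left of the grey line) and of marker lists (right) in each library, with a point for each of the 3 animals per group. The sum of all 10 tubulins overlaps between groups, Tuba1b with Tuba1c and Tubb5 is higher in PAP in all animals as are the B-lineage and dividing-cell lists, and the astrocyte list is lower in PAP.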

How the data were processed

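Ribosome-bound RNA was measured in 48 samples, the 8 technical replicates of 6 libraries (Astro and PAP from each of 3 animals). Per the labels' protocols, cDNA was amplified with SMART-Seq v4 before Nextera XT library preparation. The submitters' processing notes name bcl2fastq 2.18.0.12, Trim Galore 0.4.1, STAR 2.5.2b, SAMtools and HTSeq 0.5.3, and the build mm10. The annotation used for counting, the strand setting and the treatment of reads that map to several genes are not given in the sources used here.

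The deposited values are raw counts per Ensembl gene, unscaled by the authors, per the file headers and the whole-number values. Technical replicates were summed. Symbols and positions came from GENCODE M21, which held 99.12% of the 47643 gene IDs. Genes passing filterByExpr (minimum count 10) were tested with the edgeR 4.0.16 quasi-likelihood test (R 4.3.3, TMM factors, group alone), with Benjamini-Hochberg adjustment over all 14618 genes and a threshold of 0.05. The fit was also run on simulated counts in which both groups had the same spread. It recovered most of the changed genes at a dispersion (squared coefficient of variation) of 0.05 and none at 1. In the real libraries the coefficient of variation was 0.335 in Astro and 1.57 in PAP. The simulation did not cover such unequal groups, so it does not show how the fit performs on these libraries. Alternatives used limma 3.58.1, DESeq2 1.42.0 and other filters, scalings and subsets. Sums, shares and sequence work used Python 3.11.15. Molecular identifiers are not mentioned, so the floor of 3 counts covers counting error only.

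The labels give both compartments of an animal the same number, which pairs the libraries. Over genes, the 2 libraries of an animal deviated from the means of their groups with correlations of 0.0327, 0.0185 and -0.0272. The members and lists were chosen with earlier results of these data known. The text names all 10 tubulins, up to 3 called genes per direction in each list by smallest adjusted p, up to 2 more by level where fewer than 2 were called, and the 3 genes most like each summed family. Other called genes of lists with 6 or fewer calls are named beside their counts and were chosen after their values were seen. Some sequences and 1 gene are not reported here.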

Additional observations from a re-analysis of the deposited data

How the results depend on the processing

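None of the 10 tubulin genes changed direction under any of the alternatives tried (17 each, 15 for Tubb3). Tuba1b, Tuba1c and Tubb5 passed in 13 of 17 each and Tubb2a in 12 of 17. Their log2 fold changes ran from 2.14 to 2.65, from 4.13 to 4.52, from 2.22 to 2.73 and from -2.83 to -2.24. The number of tubulins called higher (3) became 0 in the paired fit with the animal as a replicate block and 0 at an adjusted p under 0.01. The number called lower (1) became 4 by the DESeq2 Wald test, 0 with the replicate block, 2 with technical replicates 1 to 4, 3 with technical replicates 5 to 8 and 0 at an adjusted p under 0.01. With 1 library left out, the number higher ran from 0 to 3 and the number lower from 0 to 4. Without PAP animal 3, Tuba1a, Tubb2a, Tubb2b and Tubb4b were called lower, and without PAP animal 1, Tuba1a, Tubb2a and Tubb3. Calls over all genes (3115) became 1414 with a mean of at least 100 counts, 5141 by DESeq2, 133 with the replicate block, 1740 at equal depth and 163 at an adjusted p under 0.01, and ran from 115 to 4586 with 1 library left out. Without an Astro library they were 115, 128 or 140. The cause was not tested, except that fewer genes, fewer samples or a stricter threshold enter by construction. Scaling by library size alone shifted the median of all genes by 0.15. Tubb3 had 3 counts or fewer in each PAP library, so that depth allows only a bound on its fold.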
